A study of Mus musculus with 81 samples.

Results

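The proteasome genes described here are the 44 genes of the deposited table whose symbols run Psma, Psmb, Psmc, Psmd, Psme, Psmf or Psmg plus a number and whose mean level over 40 mice reached 5 CPM (counts scaled to library size). The pattern matched 48 of the 51826 genes in the table. Psmb8, Psmb9 and Psmb11 were set aside by name, and Psma8, a testis form of an alpha subunit, was left out at a mean of 1.65 CPM. The least abundant gene kept was Psmg4, at a mean of 16.4 CPM. Of the 44 genes, 14 encode core subunits (Psma1 to Psma7 and Psmb1 to Psmb7), 17 encode subunits of the 19S regulatory particle (the Psmc and most Psmd genes), and 13 encode assembly chaperones, activators, an inhibitor and the inducible catalytic subunit Psmb10. All 44 passed the filter on low counts.

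The proteasome is the cell's main machine for breaking down proteins tagged with ubiquitin. Its barrel-shaped core holds the cutting sites, formed by the beta subunits of Psmb5, Psmb6 and Psmb7, behind rings of alpha subunits. The 19S particle binds the ubiquitin tag, unfolds the protein with the ATPases encoded by the Psmc genes and feeds it into the core, while the Psme activators open the core without ATP-driven unfolding. In immune tissue Psmb8, Psmb9 and Psmb10 can replace the standard cutting subunits to form the immunoproteasome, and cells of the thymic cortex use Psmb11. When proteasome activity falls short, the transcription factor encoded by Nfe2l1 raises the genes of nearly all subunits, and cells with unbalanced chromosomes are often described as carrying a surplus of unpaired proteins.

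RNA was sequenced from 81 libraries of 40 mice of strain C57BL/6 x 129S4Sv/Jae, and every mouse, controls included, carried Plk4(Col1a1), a transgene for the kinase that starts centriole duplication, with rtTA(Rosa) and centrin-GFP(Rosa). The groups were normal thymus of 8 untreated p53+/+ mice, thymic lymphoma of 10 untreated p53-/- mice, thymic lymphoma of 9 p53-/- mice given doxycycline for 2 weeks from 30 days of age, and thymic lymphoma of 12 p53+/- mice given the same course. One untreated normal thymus was p53+/- and entered no test, except in the alternative named for it. Labelled males were 4 of the 8 normal mice and 9 of 10, 4 of 9 and 3 of 12 lymphoma mice, in the order given, so sex was unequal between groups. Doxycycline switches on the Plk4 transgene through rtTA. Of the 31 lymphomas, 13 were sampled by 4 or 5 biopsies each, and the biopsies of a mouse were summed.

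Library totals ran from 5009315 to 19717133 counts in normal thymus and from 1030428 to 26871794 counts in the lymphomas. Summed T-lineage markers (8 genes) had a median of 4941 CPM in normal thymus and 2839, 3650 and 3397 CPM in the lymphomas (untreated p53-/-, then treated p53-/-, then treated p53+/-). One normal thymus, mouse 387, had the lowest T-lineage sum of its group, 898 CPM, and the highest fat-marker sum, 8828 CPM. It also had the highest sums of B-lineage (1244 CPM against a group median of 99.6), macrophage (1911 against 639), fibroblast (2553 against 234) and endothelial markers (522 against 189) and the lowest of thymic epithelium (124 against 1514). All 8 p53+/+ normal thymuses held more fat-marker RNA (from 633.5 CPM) than any lymphoma (up to 199.6 CPM), while the p53+/- normal thymus, at 102 CPM, lay within the range of the lymphomas. One untreated lymphoma, mouse 881, had a T-lineage sum of 168 CPM and a B-lineage sum of 2374 CPM. Summed proliferation genes (15 genes) ranged from 711 to 3723 CPM in normal thymus and from 3982 to 8059 CPM over the lymphomas, with no overlap. The part of these differences in the results was not tested, and in bulk tissue fewer cells of a type and less RNA per cell cannot be told apart.

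Promoter sequence is shown for 4 of the genes because their levels are described in full: Psmb5 and Psmb6 as standard cutting subunits, Psme3 as a gene with no overlap between lymphoma and normal thymus, and Psmb10 as the one gene called lower. Each is the stretch of 120 bases that ends with a motif match, read 5′ to 3′ on the gene's strand, from RefSeq on GRCm38.p6, with the match in capitals.
Psmb5, chr14:54618034-54618153, minus strand: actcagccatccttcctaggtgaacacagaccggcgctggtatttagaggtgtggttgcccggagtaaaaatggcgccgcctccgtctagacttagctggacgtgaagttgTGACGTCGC
Psmb6, chr11:70525237-70525356, plus strand: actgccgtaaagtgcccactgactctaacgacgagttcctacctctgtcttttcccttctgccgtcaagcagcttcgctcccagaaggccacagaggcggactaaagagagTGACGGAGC
Psme3, chr11:101316055-101316174, plus strand: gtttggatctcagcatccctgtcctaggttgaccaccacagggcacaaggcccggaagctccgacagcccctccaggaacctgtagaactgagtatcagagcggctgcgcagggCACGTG
Psmb10, chr8:105938503-105938622, minus strand: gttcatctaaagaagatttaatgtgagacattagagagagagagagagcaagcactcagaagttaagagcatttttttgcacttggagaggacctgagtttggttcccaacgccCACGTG

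In Psmb5 and Psmb6 the capitals mark TGACNNNGC, the form of the antioxidant response element that Nfe2l1 and Nfe2l2 bind, which begins 47 and 9 bases before the RefSeq start. In Psme3 and Psmb10 they mark CACGTG, the E-box bound by Myc and related factors, 44 and 116 bases before the start. RefSeq windows of 300 bases (250 before to 50 after the start) were at hand for 37 of the 44 genes, as 40 windows. TGACNNNGC was found on either strand in windows of 6 genes (Psmb5, Psmb6, Psmc6, Psmd12, Psmd9 and Psme4), which is 15% of the windows against 12.39% of all windows of that length. CACGTG was in 4 genes (Psma4, Psmb10, Psmd9 and Psme3), 10% of windows against 7.15%. CCAAT was in 12 genes, 30% of windows against 37.41%. The interferon-type motifs GAAANNGAA and TTCNNNGAA were in 7 and 2 genes, or 17.5% and 5.0% of windows against 8.56% and 8.30%, and neither was in the Psmb10 window. The motifs were chosen with the members' values in view, and GAAANNGAA is 1 base shorter than the form first searched, which was rarer in all windows and was found in fewer of the genes. These are matches of letters only, and every motif was read on both strands without regard to overlap with another.

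Most proteasome genes were higher in lymphoma than in normal thymus, in each of the 3 lymphoma groups. Among untreated p53-/- lymphomas 28 of the 44 were called higher (edgeR quasi-likelihood test, Benjamini-Hochberg adjusted p under 0.05 over 17843 genes) and 1 lower, against 23.2% of all genes called higher and 17.5% called lower. In treated p53-/- lymphomas 39 rose and 1 fell, against 25.4% and 26.6% of all genes. In treated p53+/- lymphomas 40 rose and 1 fell, against 25.6% and 25.3%. The median log2 fold change of the 44 genes was 0.60, 0.97 and 0.87 in these groups, while over all genes tested it was 0.08, -0.04 and -0.001. The same 28 genes were called higher in all 3 comparisons, which share the 8 normal thymuses and are therefore not independent. Psmd4, Psmd8 and Psme4 were called in none, and Psmb10 was called lower in all 3.

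**Figure D1:**
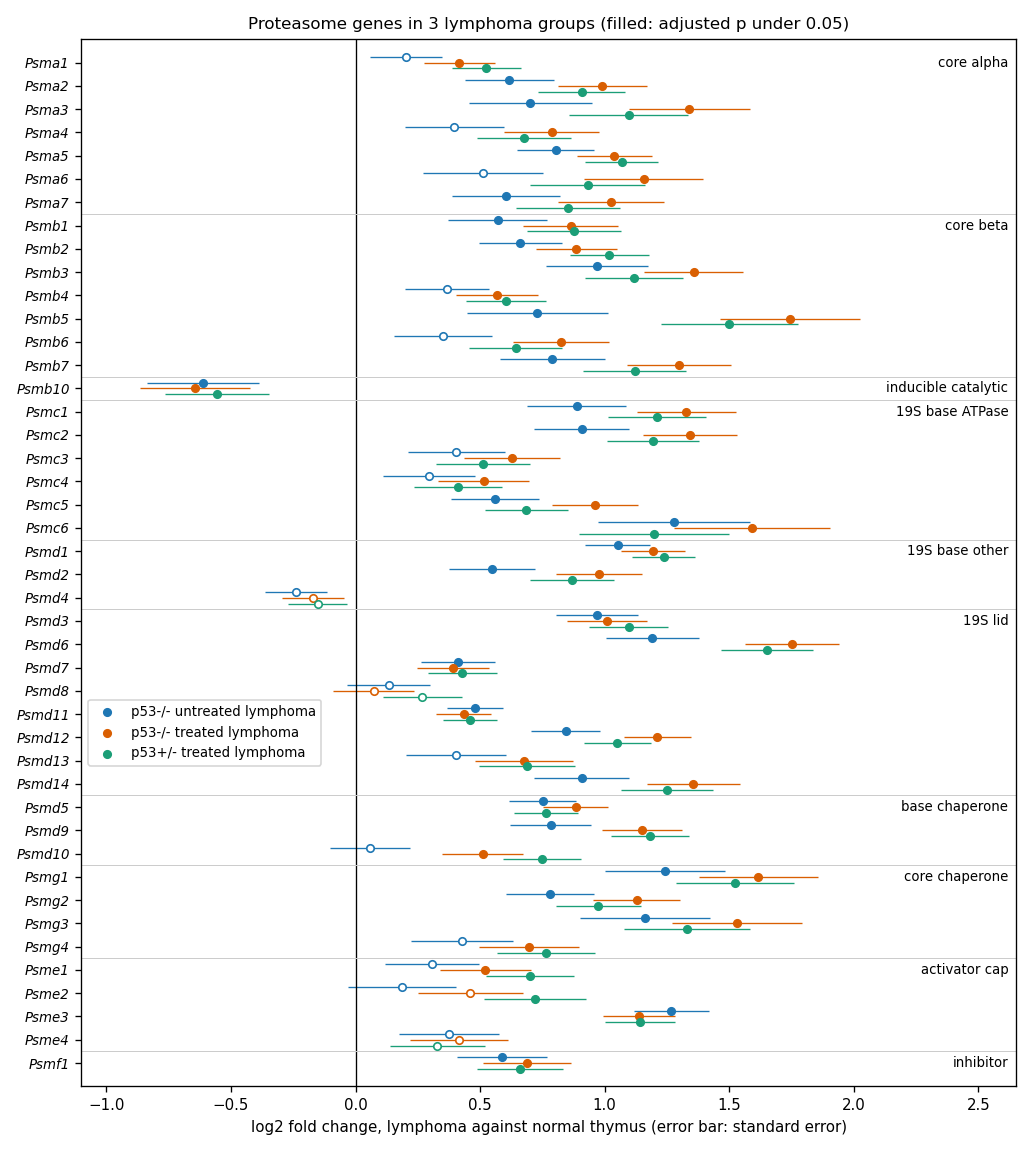
Log2 fold change with its standard error (x axis) of the 44 proteasome genes (y axis, grouped by role) in each lymphoma group against normal thymus; filled points passed an adjusted p of 0.05. Nearly all points lie to the right of 0, those of Psmb10 lie to the left and are filled, and those of Psmd4 lie slightly to the left and are open.

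As a share of all counts, the 44 genes made up a median of 0.490% of each normal thymus (lowest 0.288%, highest 0.584%). They made up a median of 0.690% in untreated p53-/- lymphomas (0.419% to 0.820%), 0.874% in treated p53-/- lymphomas (0.568% to 1.06%) and 0.762% in treated p53+/- lymphomas (0.620% to 0.948%). The share was higher than in any normal thymus for 8 of 10, 8 of 9 and 12 of 12 lymphomas. For 7 genes, namely Psmb2, Psmd1, Psmd3, Psmd5, Psmd12, Psmd14 and Psme3, every lymphoma lay above every p53+/+ normal thymus, as was the case for 3.56% of all 17843 genes tested. At the other end, none of the 31 lymphomas exceeded the highest normal thymus for Psmb10, 3 did for Psmd4 and 11 for Psmd8. The single p53+/- normal thymus sat among the p53+/+ ones, with a share of 0.499%.

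The 3 standard cutting subunits were called higher in both treated groups, and Psmb5 and Psmb7 in the untreated one too. Psmb5 (chromosome 14) encodes the chymotrypsin-like site, the main target of proteasome inhibitor drugs. Its level was 34.3, 68.4 and 86.7 CPM (lowest, median, highest) in normal thymus and 52.5, 105 and 243 CPM in untreated p53-/- lymphomas. It was 93.2, 271 and 475 CPM in treated p53-/- lymphomas and 127, 189 and 272 CPM in treated p53+/- lymphomas. Every treated lymphoma lay above every normal thymus, while 3 of the 10 untreated ones lay within the normal range. By edgeR its log2 fold change was 0.73 in untreated lymphomas (SE 0.28, adjusted p 0.0368). In treated p53-/- lymphomas it was 1.74 (SE 0.28, adjusted p 4.11e-06), and it was 1.5 in the p53+/- ones (SE 0.27, adjusted p 2.46e-05). The call in untreated lymphomas was lost with no scaling factors (adjusted p 0.0865), with no low count filter (0.053), with single-biopsy tumours only (0.195) and with only the 2 groups in the fit (0.0548).

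Psmb7 (chromosome 2) encodes the trypsin-like site. It ran at 75, 108 and 164 CPM in normal thymus, 152, 182 and 306 CPM in untreated p53-/-, 146, 252 and 551 CPM in treated p53-/- and 159, 243 and 334 CPM in treated p53+/- lymphomas. All but 3 lymphomas exceeded every normal thymus, and the log2 fold changes were 0.79, 1.30 and 1.12, all called. Psmb6 (chromosome 11), the caspase-like site, ran at 109, 149 and 171 CPM in normal thymus, 153, 204 and 274 CPM in untreated p53-/-, 113, 277 and 449 CPM in treated p53-/- and 154, 238 and 332 CPM in treated p53+/- lymphomas. Its ranges overlapped normal thymus in all groups. It was called higher in both treated groups (log2 fold changes 0.83 and 0.64) but not in the untreated one (0.35, adjusted p 0.154 by edgeR), where it passed with only the 2 groups compared (0.45, adjusted p 0.0197) and without mouse 857 (0.48, adjusted p 0.0333).

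Psmb10 (chromosome 8), the interferon-inducible counterpart of Psmb7, went the other way. Its level was 66.6, 95.6 and 118 CPM in normal thymus, 36.2, 69 and 105 CPM in untreated p53-/-, 32.6, 61.3 and 105 CPM in treated p53-/- and 28.7, 68.5 and 115 CPM in treated p53+/- lymphomas. The groups overlapped: 5, 5 and 6 lymphomas lay below every normal thymus. By edgeR its log2 fold change was -0.61 in untreated lymphomas (SE 0.23, adjusted p 0.0284). In treated p53-/- lymphomas it was -0.65 (SE 0.22, adjusted p 0.0138), and it was -0.56 in the p53+/- ones (SE 0.21, adjusted p 0.0249). These calls lie near the threshold. Over this fit and its 16 alternatives the gene was called lower in 11, 15 and 13 of 17, with log2 fold changes between -0.79 and -0.44. Without mouse 387, the normal thymus with the lowest Psmb10 level, the edgeR adjusted p was 0.0515 in untreated and 0.0607 in treated p53+/- lymphomas. The log2 fold changes were then -0.56 and -0.49, but the median of all genes also moved, by 0.125 and 0.152. The lost calls therefore cannot be put down to this mouse's Psmb10 level, and the part of the scaling was not tested.

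**Figure D2:**
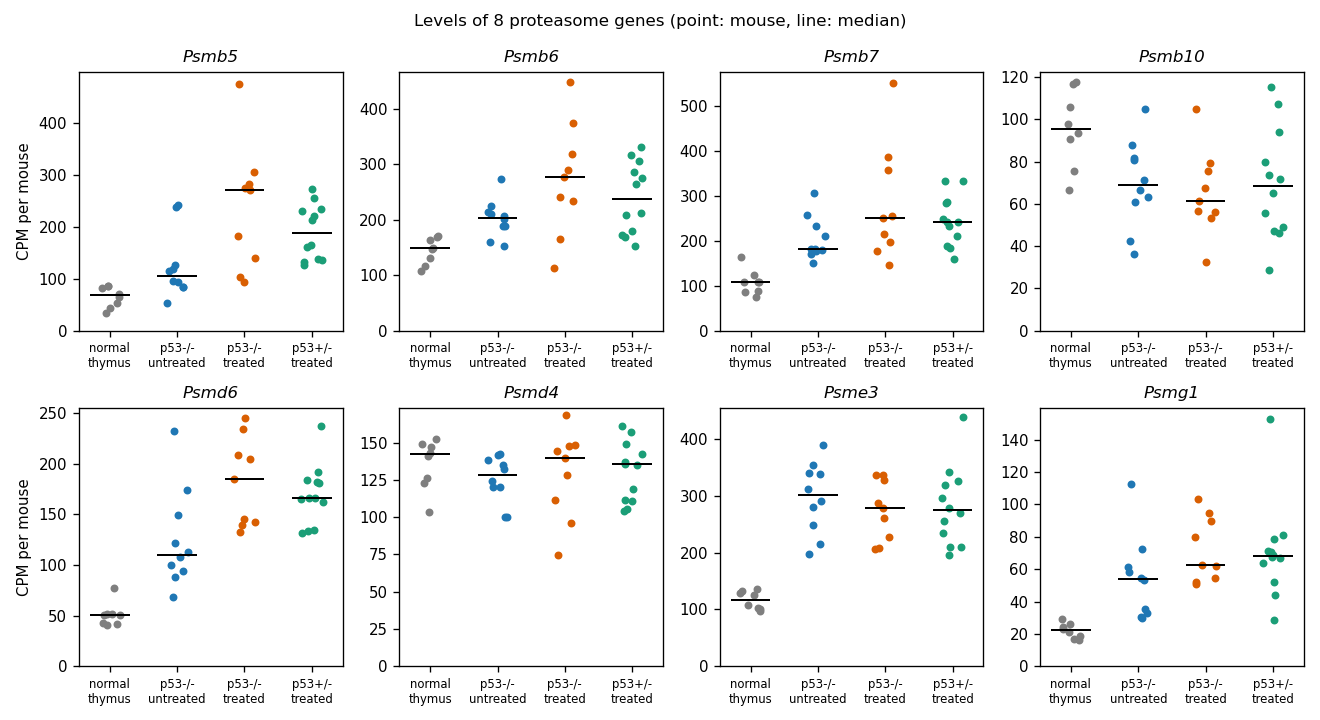
CPM per mouse (y axis, starting at 0) of 8 proteasome genes in normal thymus and the 3 lymphoma groups (x axis); each point is a mouse and each line the group median. For Psme3 no lymphoma overlaps normal thymus, for Psmd4 the 4 groups overlap throughout, and for Psmb10 the lymphoma medians of 61.3 to 69 CPM lie below the normal median of 95.6 CPM.

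Psmb8 and Psmb9, the other interferon-inducible cutting subunits, are outside the 44 genes. Psmb8 was not called in untreated lymphomas (log2 fold change 0.34, edgeR adjusted p 0.152) and was called higher in both treated groups (0.59 with adjusted p 0.00893 in p53-/-, 0.56 with adjusted p 0.0106 in p53+/-), the latter call being lost with no scaling factors (0.41, adjusted p 0.0768). Psmb9 was called in none (log2 fold changes -0.30, -0.33 and -0.34). No test compared these genes with Psmb10. The log2 ratio of each inducible subunit to the standard one it replaces is given as a description, since the pairs were chosen after their levels had been seen. The ratio of Psmb10 to Psmb7 was lower in the 3 groups by a mean log2 difference of -1.43, -1.89 and -1.73, and all 31 lymphomas lay below every p53+/+ normal thymus. For Psmb9 to Psmb6 the differences were -0.58, -1.1 and -1.03, and 6 of 10, 8 of 9 and 10 of 12 lymphomas lay below every normal thymus. For Psmb8 to Psmb5 they were -0.42, -1.06 and -0.94, with 3 of 10, 7 of 9 and 10 of 12 lymphomas below. Psmb10 was the one inducible gene of the 3 whose own level was called lower.

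Psmb11, the thymus-specific subunit made by cortical epithelial cells, ran at 5.43, 53.6 and 147 CPM in normal thymus. It did not exceed 0.59 CPM in any lymphoma, and none overlapped normal thymus. The 7 markers of thymic epithelium, of which Psmb11 is one, summed to a median of 1514 CPM in normal thymus and 64.8, 48.2 and 31.4 CPM in the 3 lymphoma groups.

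Both core and 19S genes were mostly called higher. Of the 14 core genes 9, 14 and 14 were called higher in the 3 groups, in the order given above, and none lower, against 23.2%, 25.4% and 25.6% of all genes called higher, with median log2 fold changes of 0.61, 1.01 and 0.92. Of the 17 genes of the 19S particle 12, 15 and 15 were called higher and none lower, with medians of 0.56, 0.98 and 0.87. The alpha genes, which build the gate of the core, and the beta genes each had all 7 called in both treated groups. All 6 ATPase genes were called in both treated groups and 4 of 6 in the untreated one, and 7 of 8 lid genes were called in both treated groups and 6 of 8 in the untreated one.

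The mean log2 CPM over the 14 core genes minus that over the 17 genes of the 19S particle was 0.06 ± 0.11 (SD, n = 8) in normal thymus. It was 0.09 ± 0.14 (n = 10) in untreated p53-/-, 0.16 ± 0.25 (n = 9) in treated p53-/- and 0.10 ± 0.11 (n = 12) in treated p53+/- lymphomas. The shifts from normal thymus, 0.03, 0.10 and 0.04, were thus smaller than the spread between mice of any group. When all Psma and Psmb members were set against all Psmc and Psmd members the shifts turned negative, at -0.03, -0.01 and -0.07, so no direction is given. Treated p53-/- lymphomas had the widest spread, from -0.22 to 0.62.

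**Figure D3:**
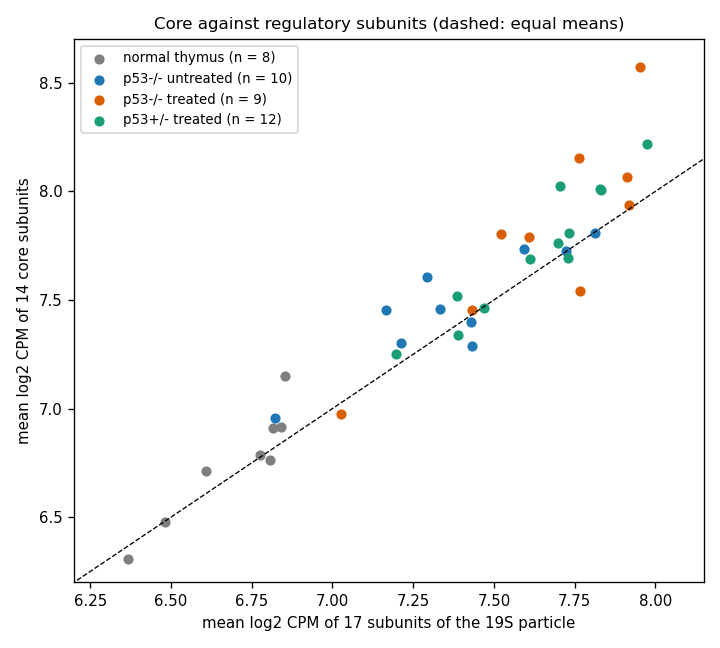
Mean log2 CPM of 14 core genes (y axis) against that of 17 genes of the 19S particle (x axis), 1 point a mouse, with the line of equal means dashed. Most lymphomas lie up and to the right of the normal thymuses, and 1 untreated and 1 treated p53-/- lymphoma have core means within the normal range.

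Within the 19S particle the fold changes were uneven. Psmd6, a lid subunit encoded on chromosome 14, had the largest log2 fold change of the 44 genes in both treated groups, although without treated p53-/- mouse 653 Psmb5 passed it in that group (1.84 against 1.78). Its level was 40.2, 50.5 and 76.7 CPM in normal thymus, 68.5, 110 and 233 CPM in untreated p53-/-, 133, 185 and 245 CPM in treated p53-/- and 132, 166 and 237 CPM in treated p53+/- lymphomas. One untreated lymphoma fell within the normal range and the other 30 lymphomas lay above it. The log2 fold changes were 1.19 (SE 0.19), 1.75 (SE 0.19) and 1.65 (SE 0.18), with edgeR adjusted p of 4.40e-06, 2.83e-09 and 4.47e-09.

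Psmc6, an ATPase encoded on the same chromosome, had log2 fold changes of 1.28, 1.59 and 1.2, all called. The value in untreated lymphomas was the largest of the 44 but rested on mouse 98, without which it fell to 0.88 (edgeR adjusted p 0.0134), below Psme3 (1.36), Psmg1 (1.23), Psmg3 (1.22) and Psmd6 (1.12). It ran at 74.1, 90.8 and 112 CPM in normal thymus, 90.2, 142 and 670 CPM in untreated p53-/-, 162, 315 and 728 CPM in treated p53-/- and 180, 232 and 353 CPM in treated p53+/- lymphomas. Its highest values came from 1 untreated and 1 treated p53-/- lymphoma, while 3 untreated ones lay within the normal range. By contrast Psmd4, the ubiquitin receptor of the particle, had log2 fold changes of -0.24, -0.17 and -0.15, none called. Psmd4 ran at 103, 142 and 152 CPM in normal thymus, and lymphoma medians were 128, 140 and 135 CPM, so the groups overlapped. Adrm1, which encodes the particle's second main ubiquitin receptor and is outside the 44 genes, was called higher in untreated p53-/- and treated p53+/- lymphomas (0.40 and 0.38) and not in treated p53-/- ones (0.26, edgeR adjusted p 0.0937).

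The genes of the assembly chaperones included some of the largest rises. Psmg1, which with Psmg2 starts the alpha ring, ran at 16.2, 22.1 and 29.4 CPM in normal thymus, 29.9, 54.04 and 113 CPM in untreated p53-/-, 50.9, 62.8 and 104 CPM in treated p53-/- and 28.3, 68.1 and 153 CPM in treated p53+/- lymphomas. All but 1 lymphoma exceeded every normal thymus, and the log2 fold changes were 1.24, 1.62 and 1.52 (SE 0.24 each, edgeR adjusted p 9.18e-05, 1.07e-06 and 1.91e-06). Of the 4 core chaperones 3, 4 and 4 were called higher, and of the 3 base chaperones (Psmd5, Psmd9 and Psmd10) 2, 3 and 3, against 23.2%, 25.4% and 25.6% of all genes. Pomp, the maturation factor of the core and outside the 44 genes, was called higher in all 3 groups (0.94, 1.18 and 1.21).

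The activators differed among themselves. Psme3, which encodes the nuclear activator PA28 gamma, ran at 97.7, 117 and 137 CPM in normal thymus, 197, 302 and 389 CPM in untreated p53-/-, 206, 278 and 337 CPM in treated p53-/- and 196, 275 and 438 CPM in treated p53+/- lymphomas. No lymphoma overlapped normal thymus. Its log2 fold changes of 1.27, 1.14 and 1.14 (SE 0.15, 0.15 and 0.14, edgeR adjusted p 3.40e-08, 7.02e-08 and 3.56e-08) were close to each other.

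Psme1 and Psme2 encode the interferon-inducible PA28 alpha and beta. Psme1 ran at 129, 155 and 190 CPM in normal thymus, with lymphoma medians of 211, 225 and 260 CPM, and was called higher in both treated groups (log2 fold changes 0.52 and 0.70) but not in the untreated one (0.31). The call in treated p53-/- lymphomas was lost with single-biopsy tumours only (edgeR adjusted p 0.0544). Psme2 ran at 81.97, 107 and 153 CPM in normal thymus, with lymphoma medians of 123, 158 and 183 CPM. It was called higher in treated p53+/- lymphomas (0.72), and its values of 0.18 and 0.46 in the p53-/- groups were not called. The value in treated p53-/- lymphomas passed in 5 alternatives, with edgeR adjusted p from 0.0057 (only the 2 groups compared) to 0.0458 (without mice 328, 869 and 870), among them those without mouse 387 (0.0306) and without mouse 857 (0.0214). For Psme2 the difference between lymphoma groups was itself not called. Psme4, the gene of the activator PA200, ran at 75.9, 91.2 and 96.8 CPM in normal thymus with lymphoma medians of 131, 130 and 125 CPM, and its log2 fold changes of 0.38, 0.42 and 0.33 were not called, but that of treated p53-/- lymphomas passed in 4 alternatives: with only the 2 groups compared (edgeR adjusted p 0.00622), without mouse 387 (0.0408), without mouse 857 (0.0345) and without mouse 653 (0.047). In untreated lymphomas it passed with only the 2 groups compared (adjusted p 0.0447). Psmf1, which encodes the inhibitor PI31, was called higher in all 3 groups (0.59, 0.69 and 0.66).

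The list of genes around the proteasome had 29 tested, of which 13, 14 and 16 were called higher and 2, 3 and 3 lower, with median log2 fold changes of 0.34, 0.26 and 0.46. Over all genes 23.2%, 25.4% and 25.6% were called higher and 17.5%, 26.6% and 25.3% lower. The list includes Psmb8, Psmb9 and Psmb11, described above. Without them 26 remained (tagging enzymes, shuttles, deubiquitinases, a ubiquitin receptor, the lid subunit gene Sem1, assembly and regulation). Of these 13, 13 and 15 were called higher and 1, 2 and 2 lower, with medians of 0.42, 0.36 and 0.48. Sem1 was called in no group (-0.25, -0.17 and -0.007). The shuttle gene Rad23b (1.28, 1.42 and 1.51), the deubiquitinase gene Uchl5 (0.97, 1.52 and 1.43) and the activating-enzyme gene Uba6 (1.04, 1.18 and 0.83) were called higher in all groups. RNA of Nfe2l1, the regulator of proteasome genes, was lower, while the amount and activity of its protein were not measured. Nfe2l1 ran at 141, 160 and 362 CPM in normal thymus, 60.7, 91.4 and 124 CPM in untreated p53-/-, 46.8, 80.7 and 130 CPM in treated p53-/- and 50.5, 77.3 and 124 CPM in treated p53+/- lymphomas. All 31 lymphomas lay below every p53+/+ normal thymus, as for 2.46% of all genes, and the log2 fold changes were -1.04, -1.24 and -1.43 (SE 0.20, 0.20 and 0.18, edgeR adjusted p 9.23e-05, 3.44e-06 and 6.91e-08). The related Nfe2l2 was called lower in the treated groups (-0.74 and -0.69) and not in the untreated one (-0.41, adjusted p 0.0829), and its call in treated p53+/- lymphomas was lost without mouse 387 (-0.41, adjusted p 0.0629). In untreated lymphomas Nfe2l2 was called lower with no scaling factors (edgeR adjusted p 0.0388), with no sex term (0.0372) and with limma voom over biopsies (0.0114).

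Genes of protein stress were called in both directions. Among 13 heat shock genes 5, 7 and 5 were called higher and 1, 2 and 3 lower, against 23.2%, 25.4% and 25.6% of all genes called higher and 17.5%, 26.6% and 25.3% called lower. Hsp90ab1, a cytosolic chaperone gene (1.19, 1.14 and 1.30), and Hspd1, a mitochondrial one (1.26, 1.41 and 1.41), were called higher throughout. The stress-inducible Hspb1 was called lower throughout (-2.58, -3.48 and -3.61), and Hspa1a and Hspa1b were called lower in treated p53+/- lymphomas (-2.42 and -2.32). Of 9 ER stress genes 2, 2 and 2 were called higher and 2, 5 and 2 lower, which for the higher calls is near the share over all genes. All 3 genes of selective autophagy, Sqstm1, Map1lc3b and Gabarapl1, were called lower in all groups, with medians of -0.85, -1.05 and -0.89. Of the 15 proliferation genes 13, 14 and 14 were called higher, with medians of 1.36, 1.60 and 1.501.

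The lymphoma groups were then compared with each other in a fit without normal thymus, over 16389 genes. None of the 44 genes passed an adjusted p of 0.05 by edgeR or DESeq2 in any of the 3 comparisons, in which 0% of all genes passed. Between treated and untreated p53-/- lymphomas 10 of the 44 genes had an unadjusted p under 0.05, all higher in treated lymphomas. Of all genes 11.7% had one, in either direction. A positive log2 difference was seen for 39 of the 44, with a median of 0.28. Over all genes the median was -0.06, so the larger part lay below 0. The members moved with each other (median r 0.44 over pairs), so their signs are not separate results.

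Psmb5 had the smallest p, with a log2 difference of 1.03 (SE 0.28, p 0.000955, edgeR adjusted p 0.259), followed by Psmd6 (0.53, adjusted p 0.298) and Psma6 (0.64, adjusted p 0.325). When the fit held only tumours with a single biopsy the 10 fell to 3, and with no sex term they rose to 14. Between treated p53+/- and untreated p53-/- lymphomas 5 of the 44 genes had an unadjusted p under 0.05, against 6.34% of all genes, and this count rose to 9 with no sex term. Psmd10 led (0.65, SE 0.18, edgeR adjusted p 0.776), with Psmb5 (0.80) and Psme2 (0.55) next. The base chaperone Psmd10, on the X chromosome, ran at 21.99, 28.4 and 35.8 CPM in untreated p53-/- and 24.6, 44.6 and 81.5 CPM in treated p53+/- lymphomas. By labelled sex it ran from 21.99 to 35.8 CPM in 9 untreated males and from 40.9 to 43.99 CPM in 3 treated p53+/- males, and was 30.2 CPM in the 1 untreated female and 24.6 to 81.5 CPM in 9 treated p53+/- females. The highest of those 3 males, mouse 328, is one of the mice whose sex-linked genes go against the label, so the split holds for labelled sex only. Between the 2 treated groups 0 of the 44 had an unadjusted p under 0.05 by edgeR or DESeq2, against 5.27% of all genes. The smallest p belonged to Psmc5, Psmc6 and Psmd10, with log2 differences of -0.28, -0.43 and 0.22 (adjusted p 0.967 each). A p that misses the threshold does not show that the groups are alike.

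Chromosome imbalance was read from RNA as the standard deviation, over 19 autosomes, of each chromosome's median log2 ratio to normal thymus, computed from 14870 genes without the 44. It reads RNA levels, so DNA copy number was not measured by it. It ran from 0.02 to 0.05 in normal thymus, from which the ratios were taken, and from 0.12 to 0.32 in untreated p53-/-, 0.27 to 0.38 in treated p53-/- and 0.22 to 0.37 in treated p53+/- lymphomas. Within the lymphomas, with group and sex in the edgeR fit, none of the 44 genes changed with imbalance at an adjusted p of 0.05, against 0.104% of all genes (17 genes). Without adjustment 1 of the 44 had a p under 0.05, against 13.1% of all genes, and the 8 alternatives gave 1 to 4 (2 by DESeq2, 4 with no group term). The median slope of the 44 genes was 0.01 on the log2 scale for each 0.1 of imbalance, with 22 positive and 22 negative, and over all genes it was 0.01. Psmc4, an ATPase gene, had the smallest p and a negative slope (-0.41, SE 0.14, p 0.00823, edgeR adjusted p 0.208). Psmg3 (0.48, SE 0.23, adjusted p 0.381) and Psmc2 (0.32, SE 0.17, adjusted p 0.434) came next. None of the 13 heat shock genes, the 9 ER stress genes or the 3 autophagy genes was called either, and 2, 1 and 0 of them had an unadjusted p under 0.05. The 2 heat shock genes, Bag3 (-0.98) and Dnajb1 (-0.41), had negative slopes, and the ER stress gene, Hsp90b1 (0.35), a positive one.

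As a description over mice, the mean log2 CPM of the 44 genes against imbalance gave Pearson r 0.22 and Spearman rho 0.24 over all 31 lymphomas, which mixes groups that differ in both measures. Within groups r was 0.13 in untreated p53-/- (n = 10, rho 0.30), -0.14 in treated p53-/- (n = 9, rho -0.18) and -0.06 in treated p53+/- lymphomas (n = 12, rho 0.02). Without the 2 mice farthest from the median imbalance r was 0.20, 0.36 and 0.07, so the sign in both treated groups rested on those mice. The core minus 19S difference had r 0.65, -0.59 and -0.14 in these 3 groups (rho 0.70, -0.65 and -0.08). Without the 2 farthest mice these were 0.60, -0.50 and -0.28. The groups thus differed in sign and the difference was not tested. The same mean of the 44 genes moved with the mean of the proliferation genes, with r 0.79, 0.44 and 0.50 (rho 0.79, 0.62 and 0.46), and without the 2 mice farthest in proliferation r was 0.90, 0.21 and 0.44. With the mean of the T-lineage markers r was 0.34, 0.81 and 0.36 (rho 0.62, 0.82 and 0.36), or 0.46, 0.80 and -0.06 without the 2 farthest mice. With the macrophage markers it was -0.01, -0.58 and -0.61 (rho -0.01, -0.22 and -0.41), or 0.31, 0.44 and -0.05 without the 2 farthest, so these values rested on those mice. With the B-lineage markers it was -0.30, -0.58 and -0.22 (rho -0.53, -0.68 and -0.18), or -0.33, -0.30 and -0.40 without the 2 farthest. The part of cell make-up in the members' levels was not tested.

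**Figure D4:**
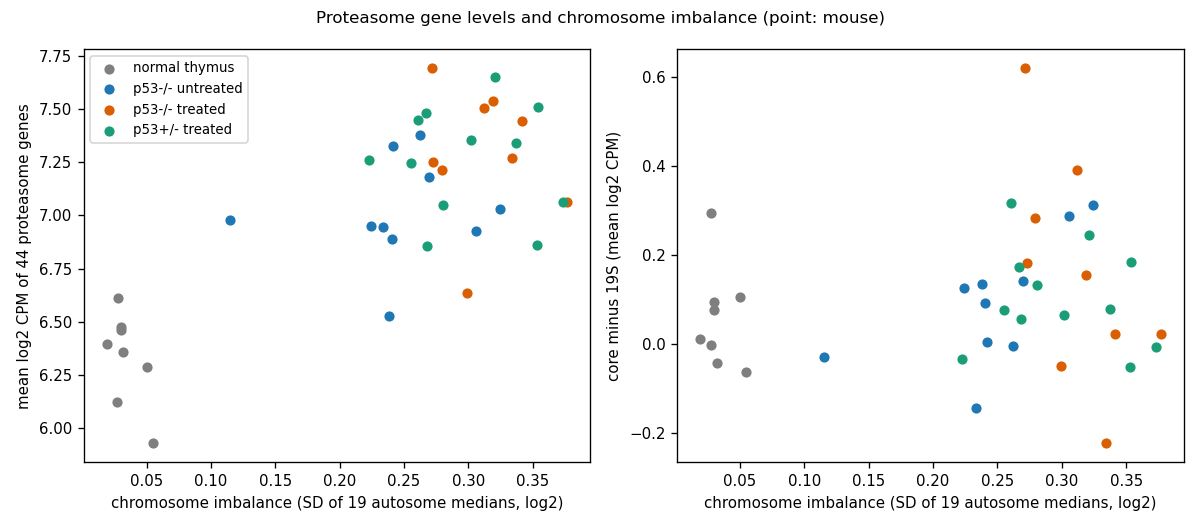
Mean log2 CPM of the 44 proteasome genes (left, y axis) and core minus 19S difference (right, y axis) against chromosome imbalance (x axis), 1 point a mouse. Lymphomas are apart from normal thymuses in imbalance, all but 1 untreated lymphoma lie above every normal thymus in the mean level, and within each lymphoma group the left panel shows no shared slope.

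The level of a single gene moved with that of the chromosome it sits on. Over 31 lymphomas the Pearson r between a gene's log2 CPM and the median of its own chromosome without that gene had a median of 0.48 over the 43 autosomal members, and 41 of the 43 were positive. Over 11339 autosomal genes of at least 5 CPM the median was 0.34 and 86.6% were positive, and over all 17184 autosomal genes tested the values were 0.25 and 79.3%. The highest values were those of the 19S genes Psmd2 on chromosome 16 (0.82) and Psmd6 on chromosome 14 (0.75). Psmb5 had 0.62. Psmb10 (0.06), Psmb4 (-0.09) and Psmd4 (-0.06) had values near 0.

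Chromosome 14 carries Psmb5, Psmc6, Psmd6, Psme1 and Psme2, and its median was shifted by 0.15, 0.41 and 0.43 against normal thymus in the 3 lymphoma groups. Chromosome 7 carries Psma1, Psmc4, Psmd8 and Psmd13 and was shifted by -0.25, -0.32 and -0.25, and its members' median log2 fold changes were 0.25, 0.47 and 0.47, below those of the 5 genes on chromosome 14 (0.73, 1.59 and 1.2). Chromosome 5, with Psmc2, Psmd9 and Psmg3, had the largest upward shifts of the chromosomes that carry members (0.36, 0.51 and 0.47) and member medians of 0.91, 1.34 and 1.19. On chromosome 16, which was shifted little (-0.08, 0.07 and 0.04), the medians of Psmd2 and Psmg1 were 0.90, 1.30 and 1.2. Across the 43 genes the Pearson r between log2 fold change and chromosome shift was 0.45, 0.54 and 0.53, as a description over genes, which are not independent replicates. After each gene's own chromosome shift was subtracted, the median log2 fold change of the 43 genes was 0.55, 0.85 and 0.82, against 0.61, 0.98 and 0.88 before, and 41, 42 and 42 of them were positive after it. In both treated groups that count includes Psmd4, which was below 0 before. Psmb5 kept 0.58, 1.34 and 1.07, whereas Psme1 kept 0.15, 0.12 and 0.27 and Psme2 0.03, 0.05 and 0.29.

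**Figure D5:**
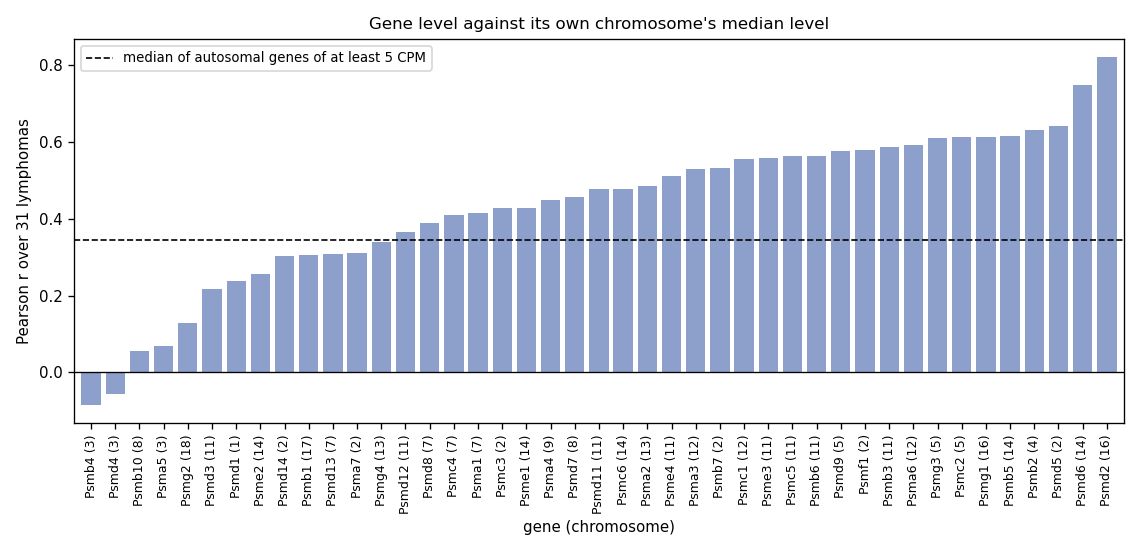
Pearson r over 31 lymphomas (y axis) between each autosomal proteasome gene and the median level of its own chromosome, which is given in brackets on the x axis; the dashed line is the median of 0.34 over autosomal genes of at least 5 CPM. The bars run from -0.09 for Psmb4 to 0.82 for Psmd2.

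Members also moved with each other across lymphomas once group means were removed. Over the 946 pairs the median r was 0.44. It was 0.59 for pairs of core genes, 0.44 for pairs of 19S genes and 0.52 for a core gene with a 19S gene. Pairs on the same chromosome (71 pairs) had a median of 0.68, and pairs on different chromosomes (875 pairs) 0.43. The closest pair was Psmb3 with Psmc5 (0.91), both on chromosome 11. Psme3 moved least with the others, with a median r of 0.08 and its lowest value with Psmd10 (-0.33), and Psmd11 (0.15) and Psme4 (0.15) followed. All values share library scaling, and pairs share genes. No value over pairs of other genes is given here, so these values cannot be read as a trait of the proteasome genes.

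In the 13 tumours sampled 4 or 5 times, the mean log2 CPM of the 44 genes had a standard deviation among biopsies of 0.07 to 0.22 (median 0.16). Between mice it was 0.24, 0.31 and 0.26 in the 3 groups. The widest gap inside a tumour was 0.49 log2 units, from 7.23 to 7.71, in treated p53-/- mouse 870. The core minus 19S difference had a standard deviation among biopsies of 0.02 to 0.10 in 4 untreated p53-/- tumours, 0.135 to 0.179 in 3 treated p53-/- tumours and 0.03 to 0.17 in 6 treated p53+/- tumours. Between mice it was 0.14, 0.25 and 0.11, so each biopsied tumour of both p53-/- groups varied less than its group, while some p53+/- tumours varied more.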

How the data were processed

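The authors deposited 1 table of expected counts (RSEM estimates, which share ambiguous reads among genes) of 51826 genes in 81 libraries. The submitters' processing notes name CASAVA 1.8, fastp, STAR 2.7.2b, RSEM 1.1.17 and mm10. Strandedness is not given in the sources used here. Processed pseudogenes of Psmb5, Psmb6 and Psmb7 and the near copy Psme2b have rows of their own, so values of Psmb5, Psmb6, Psmb7 and Psme2 are uncertain by any reads shared with them. Of the values 14.25% were not whole. Expected counts were rounded and the biopsies of a mouse were summed. GENCODE M21 gave coordinates for 51633 genes (99.63%).

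EdgeR 4.0.16 in R 4.3.3 was used with TMM scaling, the filterByExpr filter, robust quasi-likelihood fits, labelled sex as a covariate and Benjamini-Hochberg adjustment. One fit held normal thymus and 3 lymphoma groups, one the lymphomas alone, and one added imbalance. Log2 CPM used a prior count of 2. DESeq2 1.42.0, limma 3.58.1 and other filters, scalings and sample sets were alternatives. On simulated counts for treated p53+/- lymphoma against normal thymus (17506 genes), 100 of 100 genes changed 4-fold and 53 of 100 changed 2-fold were called, with 8 false calls. The 3 mice whose sex-linked genes go against the labelled sex (328, 869 and 870) stayed in the fits. Genes named with values in every group were the cutting subunits, the activators, and the 3 largest rises and falls or smallest p in each comparison; Psmd4, Adrm1, Pomp and other genes outside it were picked with their values in view. The members and lists were chosen with earlier results of these data known. The mouse was the replicate.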

Additional observations from a re-analysis of the deposited data

Results flagged for a closer look

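In normal thymus and both p53-/- lymphoma groups, 84 sets of values were screened by Dixon's test at 95%. The screen sought a mouse set apart from the rest of its group, and 8 were found, while chance gives about 1 in 20. The 12 treated p53+/- lymphomas were not screened. In normal thymus, mouse 624 stood apart with the highest Psmd6 level (76.7 CPM) and the highest core minus 19S difference (0.294), and mouse 387, whose fat markers were highest, stood apart with the highest Nfe2l1 (362 CPM) and Nfe2l2 (135 CPM) levels. In untreated p53-/- lymphomas, mouse 562 had the lowest chromosome imbalance (0.115), and mouse 637 had the lowest log2 ratios of Psmb9 to Psmb6 (-2.17) and of Psmb10 to Psmb7 (-3.08). In treated p53-/- lymphomas, mouse 653 had the highest Psmc6 level (728 CPM). Psma8, left out of the 44 genes for its low mean, reached 32.6 CPM in treated p53+/- mouse 903 and lay above the highest p53+/+ normal thymus (0.94 CPM) in 5 of 31 lymphomas.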

How the results depend on the processing

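Of the counts of members called, 109 of 122 alternatives stayed within 1.5 times the main count. These include the fits among lymphomas and on imbalance, where the count was 0 throughout and was scored as unchanged. Others are the 1 lower call staying at 1, so the 109 alone says little about robustness. Calls of higher members ranged from 21 to 35 in untreated p53-/-, 32 to 41 in treated p53-/- and 36 to 41 in treated p53+/- lymphomas, and in all fits among lymphomas or on imbalance 0 were called. The 13 that moved concern the single lower call, Psmb10. In untreated lymphomas it went to 0 with no low count filter, with single-biopsy tumours only, with only the 2 groups compared, without normal mouse 387, without mice 328, 869 and 870, and without mouse 857, and to 2 (with Psmd4) with no scaling factors. In treated p53-/- lymphomas it went to 0 with single-biopsy tumours and without mice 328, 869 and 870, and in treated p53+/- lymphomas to 0 with no low count filter, without mouse 387, without those 3 mice and without mouse 857. The cause was not tested. The core minus 19S shift of treated p53+/- lymphomas went from 0.044 to -0.069 with the wider classes. Of 768 log2 fold changes of named genes under alternatives, 734 kept direction and side of the threshold, 19 lost the call, 15 gained it and none reversed. The median of all genes moved by more than 0.1 in all groups without mouse 387 (to 0.208, 0.105 and 0.151), in both treated groups without mouse 857 (to 0.064 and 0.108), in the untreated and treated p53+/- groups with no scaling factors (to -0.048 and -0.117), and in the untreated group with limma voom over biopsies (to -0.076). Relative to the median of all genes, the members' median stayed between 0.43 and 0.67 in untreated p53-/-, 0.88 and 1.03 in treated p53-/- and 0.79 and 0.93 in treated p53+/- lymphomas over all these fits. Leaving out mice 857, 881, 98 or 653, and all alternatives for the catalytic ratios, were chosen after seeing the data. Mouse 857 had the shallowest library (1030428 counts). In the simulation 53 of 100 2-fold changes were called. It gave every gene the same spread and changed far fewer genes than were called in the data. Sensitivity in these comparisons was therefore not measured by it, and some smaller changes were called. In treated p53-/- lymphomas Psmd11 was called higher at 1.35-fold (edgeR adjusted p 0.00126). No paired analysis was possible because no number is shared between mice of different groups.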
